A study of Mus musculus with 24 samples.

Results

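The Myc-Max-Mxd network was followed by name through 9 genes, Mycn, Myc, Max, Mxd1, Mxd3, Mxd4, Mxi1, Mnt and Mga, which 11 of the 39429 probes on the arrays measured. A probe had to have a background-subtracted signal over 10 in both dyes on at least 80% of the arrays on which it could be read, and 8 of the 9 genes passed among 20891 genes in all. Mxi1 did not pass, since its probe was well above background in the tumor dye on 6 and in the reference dye on 1 of 20 arrays, so no level is given for it. Mycn was chosen by its log2 difference between early and late tumors on these arrays, so that difference is described here without a test, and the other members were added as its partners and antagonists.

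The 24 tumors were mammary tumors of female BALB/c mice, and every mouse, in every group, had been given the carcinogen 7,12-dimethylbenz[a]anthracene (DMBA), so no untreated tissue was among them. Mice were fed from weaning on a low-fat diet (LFD) or a diet high in animal fat (HFD), and some were switched after the peripubertal period to HFD (LFD-HFD) or to LFD (HFD-LFD). By their labels the tumors were 5 LFD Late, 6 HFD Late, 4 LFD-HFD Late, 3 HFD-LFD Late, 3 HFD Early and 3 HFD-LFD Early, where early and late refer to tumor onset. Each tumor was hybridized on its own array with a common reference RNA of 11 mouse cell lines, and the labels do not say whether tumors of a group came from separate mice, so the p-values measure the spread between these tumors.

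Proteins of the Myc family bind DNA as dimers with Max at the E-box, the sequence CACGTG, and there they recruit enzymes that open chromatin at genes of growth and division. Mxd proteins, Mxi1, Mnt and Mga compete for Max, and the dimers that they form mostly repress the same genes. Myc is used widely by dividing cells, whereas Mycn is known from embryonic and progenitor tissue and from neuroblastoma, in which it can be amplified.

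Promoters are shown for Mycn, which led to the choice of the network, and for Mxd3, the member with the firmest change beside it. Each runs from 250 bases before to 50 bases after the start of the gene as given by RefSeq on build GRCm38.p6, for Mycn chr12:12941787-12942086 and for Mxd3 chr13:55329682-55329981, both on the minus strand. They are written 5′ to 3′, and capitals mark matches to the E-box CACGTG or to the E2F-type sequences TTTCCCGC and TTTGGCGC, searched on both strands.
Mycn: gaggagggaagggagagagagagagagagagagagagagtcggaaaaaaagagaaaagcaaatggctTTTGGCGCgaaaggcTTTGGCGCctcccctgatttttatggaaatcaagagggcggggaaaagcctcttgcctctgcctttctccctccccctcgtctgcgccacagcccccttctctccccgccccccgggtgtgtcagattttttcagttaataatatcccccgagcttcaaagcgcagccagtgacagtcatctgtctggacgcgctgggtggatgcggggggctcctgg
Mxd3: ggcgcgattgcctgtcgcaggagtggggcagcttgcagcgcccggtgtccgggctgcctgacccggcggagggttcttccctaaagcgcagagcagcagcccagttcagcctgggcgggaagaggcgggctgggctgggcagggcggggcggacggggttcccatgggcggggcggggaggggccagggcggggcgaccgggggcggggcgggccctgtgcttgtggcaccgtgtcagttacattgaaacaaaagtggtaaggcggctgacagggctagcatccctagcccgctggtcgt

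The Mycn window held 2 E2F-type matches, starting at positions -183 and -168 from the start of the gene, and no E-box, and the Mxd3 window held no match to either. E2F-type letters occurred in 1.56% and the E-box in 7.15% of 32851 promoters of the same length. Among the 8 members with a promoter in the table, the E-box stood in the windows of Max, Mxd4 and Mnt. It also stood in 8 of 25 promoters of the nucleolar target genes of Myc and in 9 of 23 of its metabolic and cell cycle target genes, 2 lists used below.

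The direction of the ratios had to be settled from the signals, because the labels put the tumor RNA in cyanine 5 and the methods of the study put the reference RNA there. Across the arrays the cyanine 5 signal of a probe had a median SD of 0.62 on the log2 scale, against 0.27 for cyanine 3, and cyanine 5 lay farther from the median array on 24 of 24 arrays. The tumor was therefore taken to be in cyanine 5, as labelled, and all values here are log2 ratios of tumor over reference, opposite to the direction that the methods imply. Arrays lay on 7 slides scanned in 3 sessions, with 3 early and 8 late tumors in session 1, 3 early and 3 late in session 2, and 7 late tumors in session 3. Slide 2 held only the 3 HFD Early tumors, and slide 4 the 3 HFD-LFD Early tumors with 1 late tumor. The other slides held late tumors only. Outside slide 4, onset and slide therefore cannot be told apart, also within a session. On slides 6 and 7, which hold late tumors only, rows of spots along an edge were dim in cyanine 5 and were treated as missing, which removes Mycn and Mxd3 on slide 6 and the main probe of Mxd4 on slide 7.

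Mycn was high in every early tumor and low in most, but not all, late tumors. Its 3 HFD Early tumors had log2 ratios of 2.36, 2.02 and 0.93. The 3 HFD-LFD Early tumors had 1.24, 1.44 and 2.14. Thus all 6 early tumors lay above the reference RNA, with no gap between the diets.

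LFD Late tumors had Mycn at -3.58, -2.92, -2.39 and -2.79, and LFD-HFD Late tumors at -3.13 and -3.18. HFD Late tumors had -3.17, 1.08, 1.90 and -2.35. HFD-LFD Late tumors had -2.12, -4.04 and 1.48. In both late groups fed HFD around puberty, tumors therefore fell on either side, and 3 of 13 late tumors, HFD Late replicates 2 and 3 and HFD-LFD Late replicate 3, lay above the lowest early tumor.

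**Figure D1:**
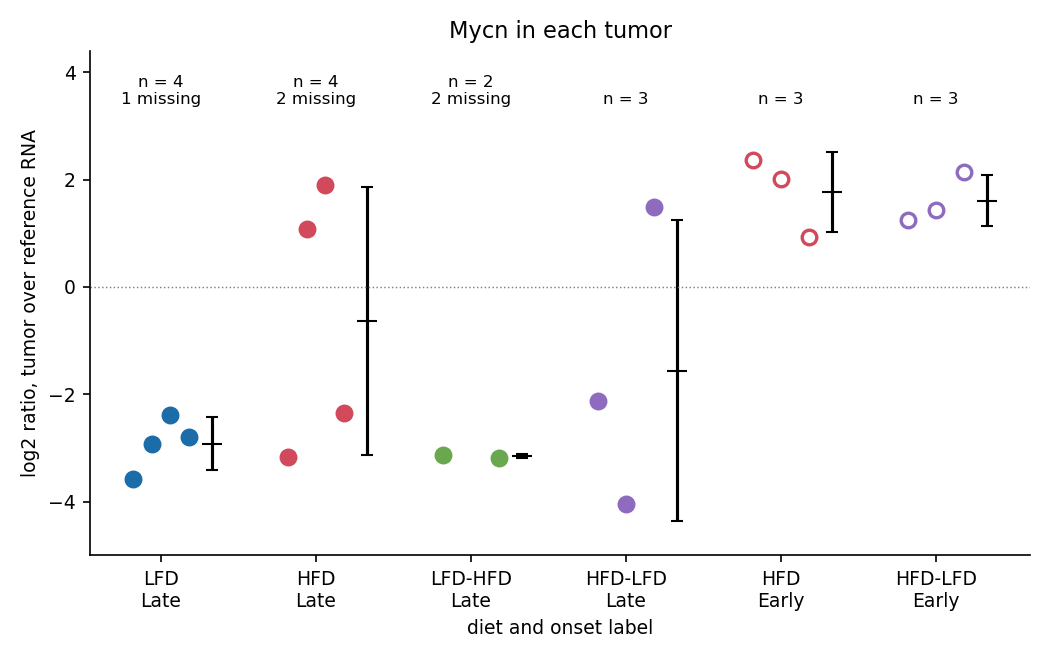
Log2 ratio of Mycn in each tumor over the reference RNA, by diet and onset label; filled points are late tumors, open points early tumors, and bars show mean ± SD. All 6 early tumors lie between 0.93 and 2.36, and 3 of the 13 late tumors with a value reach that range.

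Over all diets the mean of Mycn was 1.69 ± 0.57 (SD, n = 6) for early onset and -1.94 ± 2.02 (SD, n = 13) for late onset. The difference was 3.63 log2 units, which is a 12.4-fold higher ratio in early tumors. Early tumors came only from HFD and HFD-LFD mice, whereas late tumors came from all diets. This and every other early against late difference over all tumors therefore mixes onset with the diet around puberty. For Mycn the difference was 2.41 within HFD and 3.16 within HFD-LFD. The background-subtracted signal of its probe, on chromosome 12 of mm9 from 12943193 to 12943252, ranged from 18.5 to 19300 in the tumor dye, so the lowest tumor lay close to the minimum of 10 that was asked of a probe. The values left an empty stretch of 3.05 log2 units between -2.12 and 0.93, with 10 tumors below and 9 above, and the next widest step between neighboring values was 0.46.

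For 5 late tumors no value entered these sums, 4 in dimmed rows and LFD-HFD Late replicate 3 by an outlier flag on the spot. The scanner software's own log2 ratio was -3.99 in LFD-HFD Late replicate 1 and -3.28 in LFD-HFD Late replicate 3. It was 1.43 in LFD Late replicate 4, 0.30 in HFD Late replicate 5 and 1.89 in HFD Late replicate 6. Among the spots of the same dimmed rows these last 3 values stood at the 97.9th, 95.5th and 99.6th percentile, and 1 of the 3 tumors had been fed LFD throughout. In bulk tumors a smaller share of cells with Mycn and less Mycn RNA per cell cannot be told apart, for this gene and every other gene below.

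By group mean Mycn was ordered HFD Early (1.77 ± 0.75, n = 3), HFD-LFD Early (1.61 ± 0.47, n = 3), HFD Late (-0.63 ± 2.50, n = 4), HFD-LFD Late (-1.56 ± 2.80, n = 3), LFD Late (-2.92 ± 0.49, n = 4) and LFD-HFD Late (-3.15 ± 0.04, n = 2), each with its SD. The tumors of each pair of neighbors in this order overlapped. Early HFD and early HFD-LFD tumors, a comparison that the choice of Mycn did not use, differed by 0.17 (95% interval -2.50 to 2.83), with an adjusted p of 0.954. These groups were scanned in different sessions. No group with a Mycn value in session 1 had one in session 2 or 3, so a session block cannot estimate this difference. The value that such a fit returned, -4.39 (standard error 1.86), is therefore not read as a difference between the diets. Late HFD tumors were 2.29 above late LFD tumors (95% interval -0.03 to 4.60, adjusted p = 0.584). This ranged from 1.44 without HFD Late replicate 3 to 3.13 without HFD Late replicate 1. With array weights it was 3.99 (adjusted p = 0.0162), in a fit that called 1230 genes where the main fit called 0. In 38 of 39 alternatives it was not called.

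Myc, the gene that gives the network its name, was present at or above the reference in nearly every tumor. HFD Early tumors had log2 ratios of 1.56, 1.54 and 1.61 and HFD-LFD Early tumors 0.86, 0.89 and 1.07. The 18 late tumors ran from -0.19 over a median of 0.69 to 2.00, so that 7 of them lay above the lowest early tumor and no early tumor lay above all late ones. The difference between early and late tumors was 0.52 (standard error 0.24, adjusted p = 0.135). Within session 2, with 3 early and 3 late tumors, it was 0.63, with an adjusted p of 0.0246. With scan session as a block it was 0.69, with an adjusted p of 0.0462. Within session 1 it was 0.73, with an adjusted p of 0.0707. Myc was not called in 37 of 42 alternatives.

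Max, the shared partner, was nearly level. Its 6 early tumors ran from 0.35 over 0.52 to 0.72 and its 17 late tumors from -0.08 over 0.57 to 1.35. All early values lay inside the late range, and the difference was -0.05 (95% interval -0.35 to 0.26, adjusted p = 0.865), turning to 0.34 (adjusted p = 0.262) when arrays were centred on their medians. The highest value, 1.35, belonged to HFD-LFD Late replicate 2, which also had the lowest Mycn.

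Of the 7 members tested for early against late tumors, Mxd3 rose and Mxd4 fell. Over all 20889 genes in this comparison 16% were called at an adjusted p under 0.05, 6.22% as higher and 9.77% as lower, and the members' count, 1 of 7 in each direction, is too small to be set apart from these shares. The split of calls depends on the scaling, since 1300 genes were higher and 2040 lower here, against 4060 and 820 with median centring, which moves the median of all genes from -0.05 to 0.22, and 1396 and 904 with the tumor dye alone. The share of calls and the directions below are relative to that median.

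Mxd3 encodes a Max-binding repressor that, unlike other Mxd genes, is known from cells in S phase. HFD Early tumors had log2 ratios of 0.20, 0.20 and 0.65 and HFD-LFD Early tumors 0.07, -0.12 and 0.34. The 13 late tumors with a value ran from -1.48 over a median of -0.61 to -0.26. The groups did not overlap, and all 6 early tumors lay above all 13 late tumors, including the late tumors with high Mycn in which Mxd3 was read, HFD Late replicate 2 at -0.35 and HFD-LFD Late replicate 3 at -0.55.

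Early tumors had 0.22 ± 0.26 (SD, n = 6) and late tumors -0.72 ± 0.34 (SD, n = 13) for Mxd3, a difference of 0.94 log2 units (standard error 0.16, adjusted p = 0.00118) or 1.92-fold. Among 17294 genes with at least as many values, 0.26% had every early tumor above every late tumor. Mxd3 was called in the same direction in all 42 alternative analyses, with differences from 0.80 to 1.5 and adjusted p up to 0.0425. Within session 1 its difference was 1.11 (adjusted p = 0.0425) and within session 2 it was 0.81 (adjusted p = 0.035). In session 1 the early tumors lay on slide 2 and the late tumors on slides 1 and 3. The probe, on chromosome 13 of mm9 from 55427000 to 55427059, had no value in 5 late tumors.

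**Figure D2:**
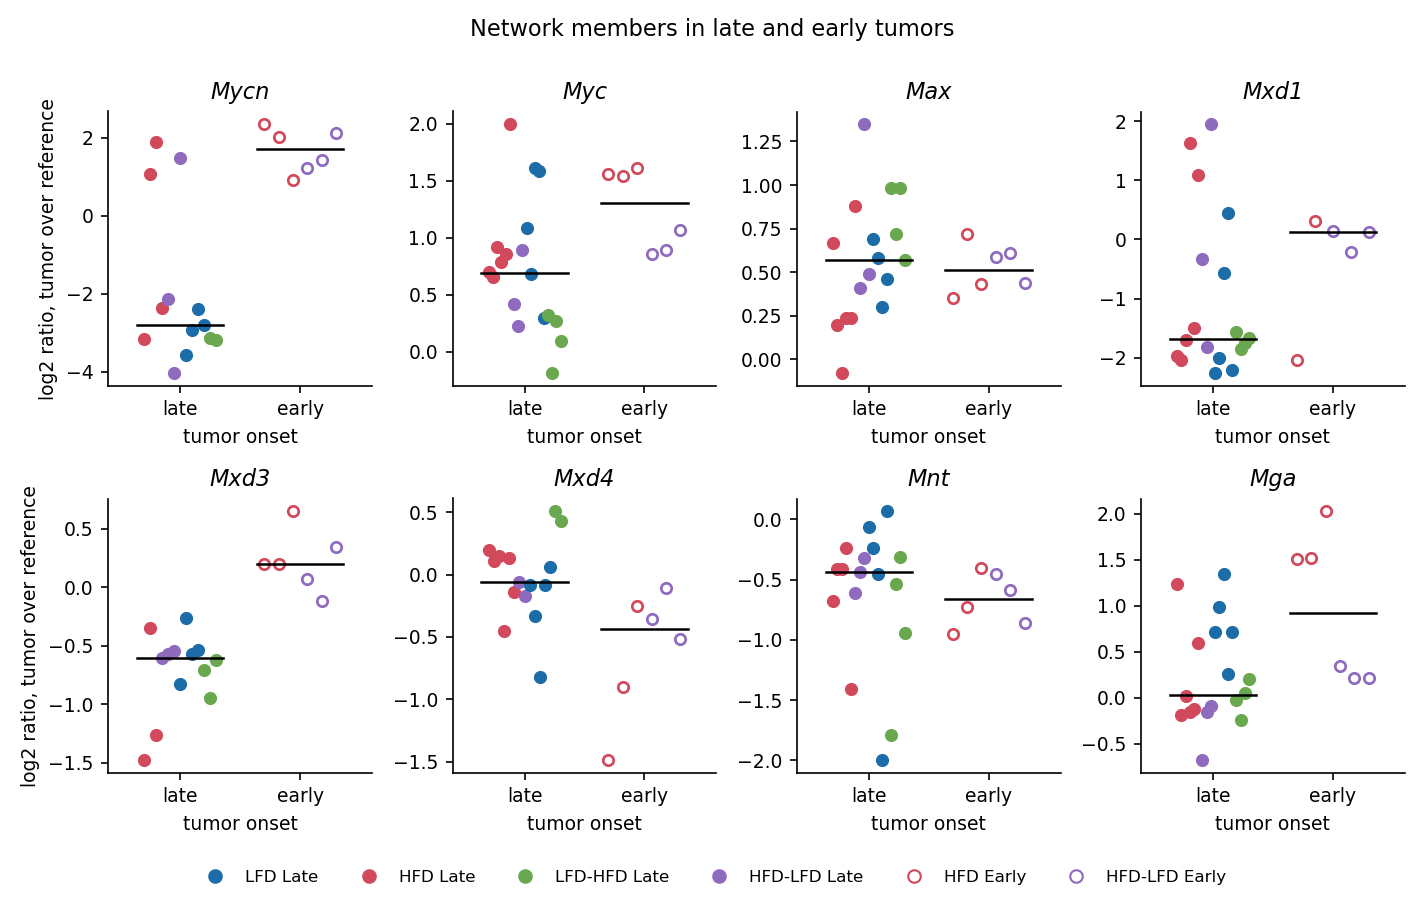
Log2 ratio over the reference RNA of the 8 measured members in late (filled) and early (open) tumors, colored by diet, with a bar at each median; each panel has its own axis. Mxd3 is the panel without overlap, with early tumors from -0.12 to 0.65 and late tumors from -1.48 to -0.26.

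Mxd4, a repressor known from differentiating and resting cells, ran the other way. HFD Early tumors had -1.49, -0.90 and -0.25 and HFD-LFD Early tumors -0.36, -0.11 and -0.52. The 15 late tumors ran from -0.82 over -0.06 to 0.51, and 2 early tumors, both fed HFD throughout, lay below all of them. By this main probe no early tumor lay above the late median.

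Early tumors were lower in Mxd4 by 0.57 (standard error 0.18, adjusted p = 0.0393), a 1.48-fold lower ratio. This call did not hold widely: it was lost when any of 10 single tumors was left out, with an adjusted p up to 0.131 without HFD Early replicate 1, and with the dimmed rows kept the difference was 0.06 (adjusted p = 0.963). A second Mxd4 probe, which overlaps the first on chromosome 5 (34519276 to 34519335 against 34519323 to 34519382), differed by -0.40 (standard error 0.31, adjusted p = 0.380 over all probes). By the second probe HFD Early tumors had -1.33, -0.73 and 0.01. HFD-LFD Early tumors had 0.65, 0.76 and 0.47, above every LFD Late and HFD Late tumor. HFD-LFD Late tumors had 0.96, 1.17 and 0.72 and LFD-HFD Late tumors 1.02, 1.39, 1.17 and 0.97. All of these but the 0.72 lay above every HFD-LFD Early tumor. The reference signal under that probe changed by 2.23 log2 units between sessions, against 0.41 under the main probe.

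Mxd1, the founding Mxd gene and a marker of differentiating cells, was spread widely in both groups. Late tumors ran from -2.26 over -1.68 to 1.95, with LFD Late replicate 4, HFD Late replicates 4 and 6 and HFD-LFD Late replicate 3 above 0. Early tumors had -2.03, 0.32, 0.15, -0.21 and 0.12, so HFD Early replicate 1 alone sat with the low late tumors. The difference was 0.67 (standard error 0.62, adjusted p = 0.476), and the second probe, which had a correlation of 0.913 with the first, gave 0.74 (adjusted p = 0.205).

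Mnt, the broadly expressed antagonist of Myc, had early values from -0.95 to -0.40 and late values from -2.0 to 0.07, wholly around the early ones. The difference was -0.03 (95% interval -0.52 to 0.46, adjusted p = 0.949) and its sign changed with the processing, to 0.34 with median centring. Its 3 lowest values, -2.0, -1.79 and -1.41, were those of the 3 tumors read on slide 6, where the probe lies in row 418 next to the dimmed rows; the part of that position in them was not tested.

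Mga, the largest protein of the network, joins Max in a Polycomb complex that silences germline genes. HFD Early tumors had log2 ratios of 1.51, 1.52 and 2.03. HFD-LFD Early tumors had 0.34, 0.21 and 0.21. HFD Early tumors were thus above every other tumor, late ones included, which ran from -0.68 over 0.03 to 1.34, whereas HFD-LFD Early tumors lay within the late range.

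For Mga the difference between early and late tumors was 0.72 (standard error 0.28, adjusted p = 0.0786), and it was not called in 37 of 42 alternatives. With each of the 6 groups weighted equally it was 0.79, with an adjusted p of 0.00472. With scan session as a block it was 0.86 (adjusted p = 0.00896) and with median centring 1.15 (adjusted p = 0.0219). Between the early groups the difference was 1.43 (standard error 0.31, 95% interval 0.79 to 2.08, adjusted p = 0.00802), or 2.70-fold higher in HFD Early. In that comparison 8.76% of genes were called, 3.87% (806) higher and 4.88% (1016) lower, against 201 and 608 with the tumor dye alone, and Mga was the only one of 8 members by the probe that stood for each gene. The second Mxd4 probe, with its uneven reference signal, differed by -1.31 (adjusted p = 0.00355 over all probes), and the mean of both probes called Mxd4 too (-0.93, adjusted p = 0.026). No scan session holds both early groups. For Mga, read on all 24 arrays, a fit with session as a block links them through late tumors, including those of session 3.

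The reference signal under the Mga probe rose over the 3 sessions from 7.43 to 7.94 and 8.52 log2 units, although the reference RNA was the same, and 11.9% of 27188 probes differed by more than 1 log2 unit in this way. The part of this shift in the difference between early groups was not tested. In the tumor dye alone HFD Early tumors had log2 signals of 10.92 to 11.14 and HFD-LFD Early tumors 9.46 to 9.55, with a difference of 1.52 that was not called (adjusted p = 0.132). With scan session as a block the difference was 1.07 (adjusted p = 0.356), and with slide as a random block 1.44 (adjusted p = 0.0513).

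Within HFD, early tumors differed from late tumors in 3 of 7 members, where 11.7% of all genes were called, 5.22% (1089) higher and 6.46% (1348) lower, against 2697 and 298 with median centring and 650 and 334 with the tumor dye alone. Mxd3 was higher by 1.38 (adjusted p = 0.00375), Mga was higher by 1.46 (adjusted p = 0.00318) and Mxd4 was lower, with a difference of -0.88 (adjusted p = 0.0217). Only 3 HFD Late tumors had an Mxd3 value. Its difference ran from 1.15 without HFD Late replicate 1 to 1.72 without HFD Late replicate 2. The Mxd4 call was lost without HFD Early replicate 1 (adjusted p = 0.144) and without HFD Early replicate 2 (adjusted p = 0.0793). All 3 HFD Early tumors lay on slide 2, and with slide as a random block Mxd4 was at -0.87 with an adjusted p of 0.112. The call was also lost with median centring (-0.40), the scanner's log ratio (-0.71), the tumor dye alone (-0.70) and the dimmed rows kept (-0.92). Myc differed by 0.58 (adjusted p = 0.173). Mycn was 2.41 higher there, with HFD Late replicates 2 and 3 among the high tumors.

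Within HFD-LFD, where 0.764% of genes were called, 97 higher and 62 lower, no member was called. Mxd3 differed by 0.67 (95% interval 0.16 to 1.19, adjusted p = 0.214), its late tumors lying between -0.61 and -0.55. Mga differed by 0.56 (adjusted p = 0.415), Myc by 0.43 (adjusted p = 0.572) and Mxd4 by -0.21 (adjusted p = 0.775), while Mycn was 3.16 higher. The split was 257 higher against 15 lower with median centring, 149 against 22 with the tumor dye alone and 93 against 37 with the scanner's log ratio.

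A test of the difference between these changes found no member, and 0.0144% of genes, that changed unequally in HFD and HFD-LFD. For Mga the changes differed by 0.89 (standard error 0.41), for Mxd3 by 0.71 (adjusted p = 0.643) and for Mxd4 by -0.66 (adjusted p = 0.673). For Mycn the difference was -0.76, with a 95% interval from -4.41 to 2.90. That Mxd3, Mxd4 and Mga were called within HFD and not within HFD-LFD does not therefore show that they respond differently.

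**Figure D3:**
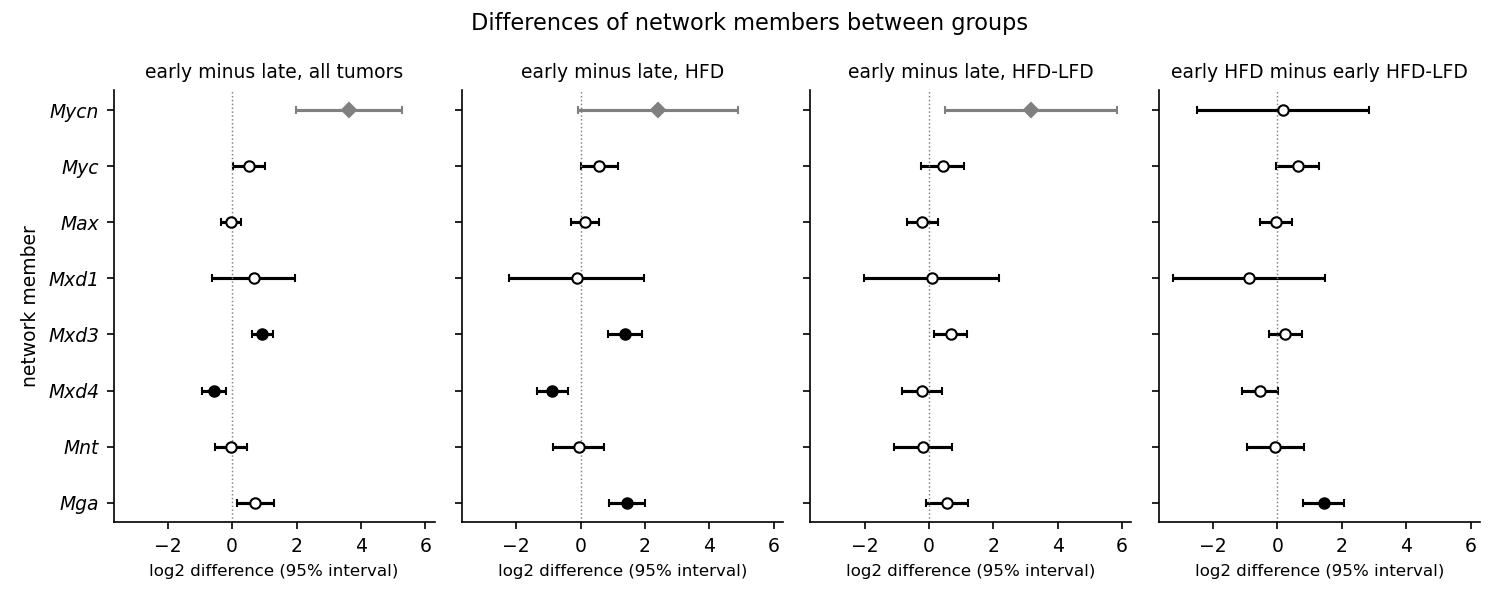
Log2 differences with 95% intervals of the 8 measured members for early minus late tumors, over all tumors, within HFD alone and within HFD-LFD alone, then for early HFD minus early HFD-LFD tumors. Filled circles have an adjusted p under 0.05, open circles do not, and grey diamonds are Mycn where it is described without a test. The intervals at the diamonds make no allowance for the choice of Mycn by its early-late difference and are not tests.

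Among late tumors alone, the 4 diets were compared by an F test that called 1.58% of genes and no member. The smallest adjusted p were those of Mga (0.0842) and Myc (0.109), and that of Mycn was 0.422. Mga had means of 0.80 ± 0.39 in LFD, 0.23 ± 0.57 in HFD, 0.00 ± 0.18 in LFD-HFD and -0.31 ± 0.32 in HFD-LFD. Late HFD against LFD tumors gave 0% of genes at an adjusted p under 0.05 by limma, with 1801 genes at an unadjusted p under 0.05, and the Mxd3 and Mga differences there were -0.48 (adjusted p = 0.582) and -0.57 (adjusted p = 0.498).

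Because the tumors form 2 clusters by Mycn, relations to it were read within each. Among the 10 tumors with low Mycn the correlation of Mycn with Max was -0.90 and with Mxd1 0.67. With Myc it was 0.29, with Mxd3 -0.03, with Mnt 0 and with Mga -0.07. Among the tumors with high Mycn it was 0.34 for Myc (n = 9), 0.16 for Mxd3 (n = 8), -0.06 for Max (n = 9) and -0.80 for Mnt (n = 9). There it was -0.3 for Mxd1 (n = 8) and 0.11 for Mga (n = 9). For Mxd4 it was -0.36 and -0.66 over 8 tumors each. These values share reference signal, array and slide and are a description of few tumors. The lowest Mycn signal in the low cluster, 18.5, lay close to the minimum of 10.

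**Figure D4:**
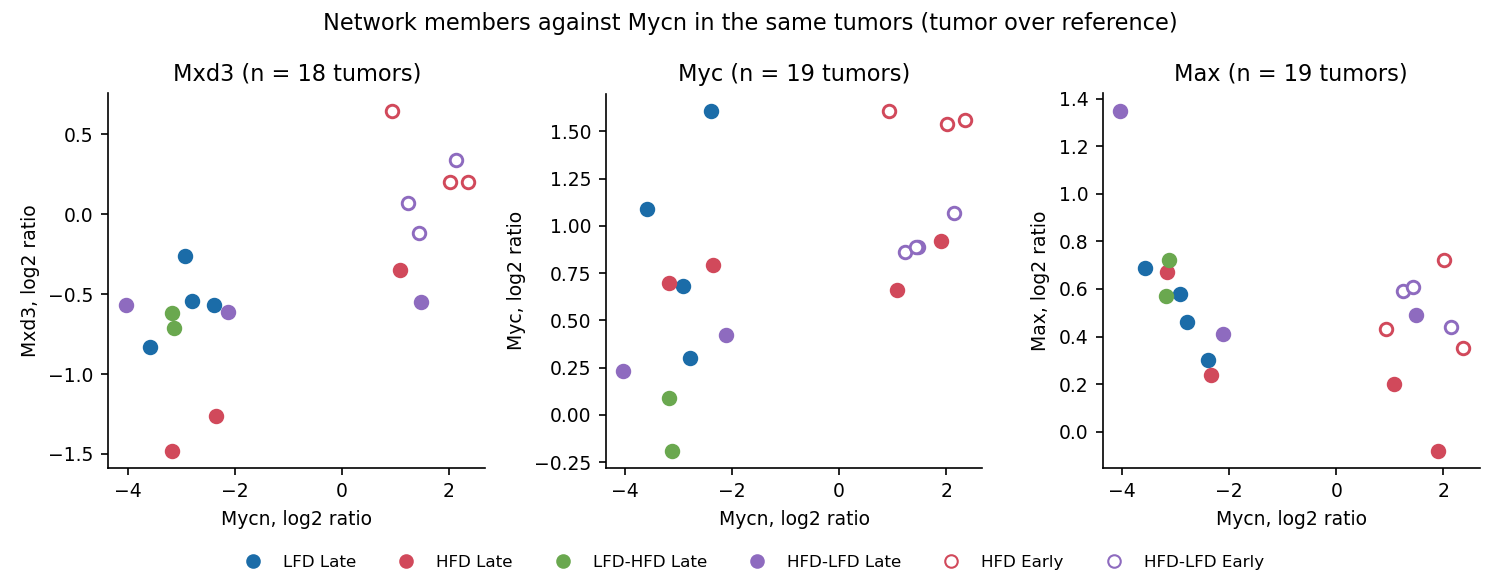
Log2 ratios of Mxd3, Myc and Max against that of Mycn in the same tumors, filled for late and open for early. Mycn leaves a gap between -2.12 and 0.93, and the late tumors on the high side of it have Mxd3 values of -0.35 and -0.55, under all early tumors.

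Over all tumors with both values, the 8 genes with the highest correlation to Mycn among 20224 ranked were Catsperz (r = 0.94), Lrch2 (0.93), Gjc1 (0.93), Csrp2 (0.92), Cep83 (0.92), Mest (0.91), Mex3b (0.91) and Large2 (0.91), each over 15 to 19 tumors. The tumors of the low and high cluster are pooled in these values. Within the low cluster r was 0.81 for Csrp2, a LIM-domain protein of the cytoskeleton, and 0.79 for Mex3b, an RNA-binding protein, and within the high cluster 0.65 and 0.56. Catsperz had 0.57 and 0.75 and Cep83 0.69 and 0.61 in the low and high cluster. For Mest, an imprinted gene of embryonic tissue, it was 0.19 and 0.37. Lrch2 had 0.39 and 0.68, Gjc1 -0.02 and 0.39 and Large2 0.33 and 0.32.

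The lowest correlations were those of Ifi44 (-0.91), Glipr1 (-0.88), Stat2 (-0.88) and Isg15 (-0.88), and Ifi44, Stat2 and Isg15 belong to the response to interferon. Stat2 had r of -0.61 and -0.52 within the low and high clusters and Ifi44 -0.31 and -0.65. Glipr1 had -0.47 and -0.57 and Isg15 -0.15 and -0.56. The Stat2 probe lies in row 517, in the rows dimmed on slide 6, and its correlation was 0.02 with these rows kept. With them kept it was 0.44 for Cep83 and 0.60 for Gjc1. The probes of Catsperz (row 497) and Lrch2 (row 495) lie in the same rows as that of Mycn (row 500). Which genes rank highest is unstable, since 1 of the 8 was shared when dimmed rows were kept and 2 when late tumors were used alone. Among the members Mxd3 ranked 294 and Myc 1085 from the top.

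Most genes around the network had no call, and their counts stand beside 6.22% of all genes called higher and 9.77% called lower. Nucleolar and ribosome assembly genes, the classic targets of Myc, had 4 of 30 called higher and 0 lower, with 26 of 30 differences above 0 and a median of 0.23 against -0.05 over all genes. With slide as a random block 0 of the 30 were called higher, and with median centring 18 were. Polr1b, a subunit of RNA polymerase I, rose by 0.82 (adjusted p = 0.0186), Dkc1, of the telomerase and pseudouridine complex, by 0.53 (adjusted p = 0.0225), Mybbp1a by 0.42 and Nop16 by 0.73. Of 26 metabolic and cell cycle targets 4 were called higher and 0 lower, with a median of 0.13. These were Cdc25a, a phosphatase that starts S phase (0.81, adjusted p = 0.00372), Cdk4 (0.55), the repair enzyme gene Apex1 (1.1) and E2f2 (1.14).

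Among 23 cofactors and turnover factors of Myc proteins, 4 were called higher and 1 lower, with a median of 0.22. Skp2, a ubiquitin ligase subunit that acts on Myc proteins and cell cycle inhibitors, rose by 1.06 (adjusted p = 0.000852), Hdac2, a deacetylase of the Mxd repressor complex, by 0.83 (adjusted p = 0.0243) and Bptf by 0.30 (adjusted p = 0.0194). Nmi, an interferon-induced protein that binds Myc family members, fell by 1.4 (adjusted p = 0.000437). Of 11 genes that Myc represses or that carry the Ndrg name, Clu (-1.53, adjusted p = 0.00613) and Gadd45a (-0.66) fell and Cdkn2b (0.88, adjusted p = 0.0294) rose, and the median was -0.02.

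Of 14 hedgehog and Wnt genes, pathways known to act upstream of Mycn, 4 were called higher and 0 lower, with a median of 0.69. Among them were the hedgehog effector Gli3 (1.15, adjusted p = 0.00652), the Wnt effector Tcf7 (2.28, adjusted p = 0.0164) and Ctnnb1, which encodes beta-catenin (0.71, adjusted p = 0.0362). Ctnnb1 had values in only 3 early and 14 late tumors. Gli1, a direct readout of hedgehog activity, differed by 1.1 and was not called (adjusted p = 0.0911). The other hedgehog genes without a call were Ptch1 (0.37, adjusted p = 0.338), Smo (0.13), Gli2 (-0.01) and Hhip (-0.09, adjusted p = 0.881). The 4 tested genes of the MLX branch had no call.

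The 3 neighbors of Mycn on its chromosome had no call either. Ddx1, often amplified along with Mycn, differed by 0.44 (adjusted p = 0.210), Nbas by 0.23 (adjusted p = 0.411) and Cyria by -0.55 (adjusted p = 0.144). Copy number was not measured, and its part in the Mycn difference was not tested. Across lists, 17 genes were called higher and 3 lower, but 9 were higher with slide as a random block and 49 with median centring.

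**Figure D5:**
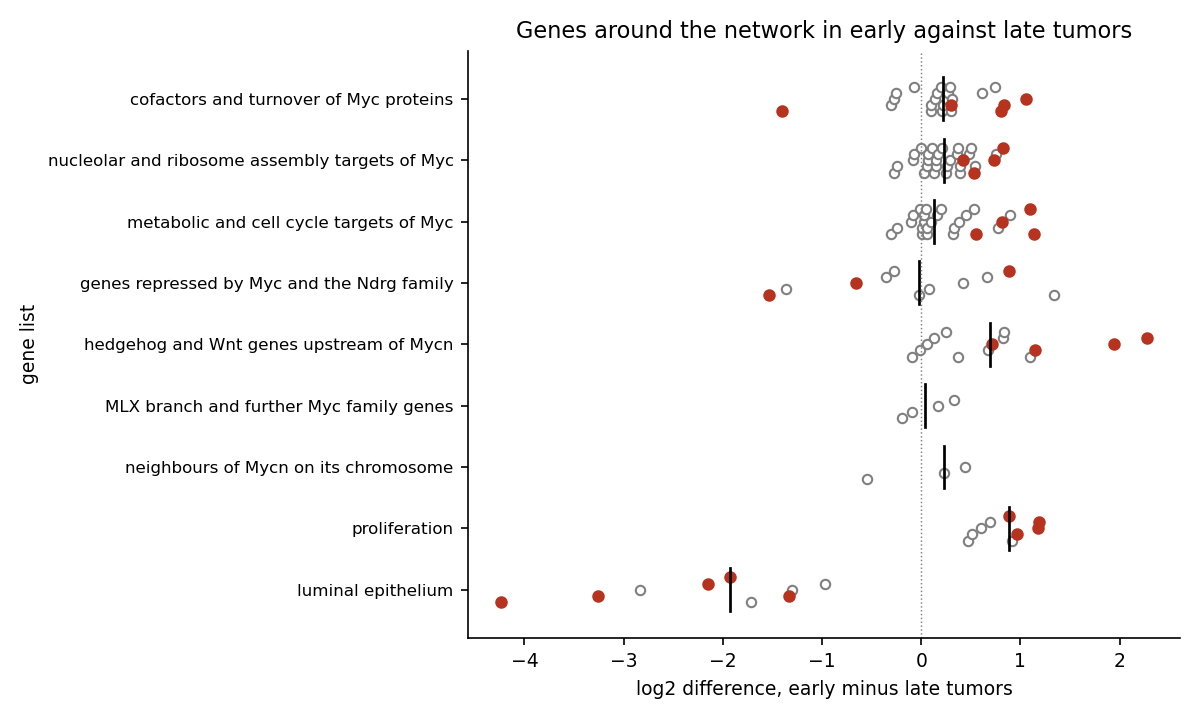
Log2 difference of early minus late tumors for every tested gene of 7 lists around the network and of 2 marker lists, with filled points for an adjusted p under 0.05 and a bar at each median. Nucleolar targets center on 0.23 and proliferation genes on 0.88, while luminal genes all lie below 0.

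Proliferation and luminal markers moved with onset beside Mycn and Mxd3. The counts here stand beside 6.22% of all genes called higher and 9.77% called lower. All 9 tested proliferation genes lay above 0 and 4 of 9 were called, Top2a (1.18, adjusted p = 0.00332), Ccna2 (1.19), Ccnb1 (0.97) and Bub1 (0.88), and the mean of the list ran from 0.02 to 0.90 in early and from -1.38 to 0.76 in late tumors. All 9 tested luminal genes lay below 0 and 5 of 9 were called lower, including Gata3 (-2.15, adjusted p = 0.000385) and Prlr (-4.24, adjusted p = 0.00167), with list means of -0.22 to 2.37 in early and -1.14 to 3.95 in late tumors. Squamous genes had no call among 14, although 12 of them lay above 0 with a median of 1.1. Of 15 hair genes 11 lay above 0 with a median of 1.25, but only 1, Foxn1, was called higher (1.01, adjusted p = 0.0318). That share, 6.67%, is close to the 6.22% of all genes. The part of these cell types and of cell division in the differences of Mycn, Mxd3 and Mxd4 was not tested.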

How the data were processed

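Tumor RNA was compared with a common reference on 24 two-color Agilent arrays (mm9). The intensity values, as deposited by the authors, are the scanner software's spot and background brightness, without dye normalization, and the deposited log10 values are its dye-normalized ratios. Feature Extraction is version 11.0.1.1 per the file headers and 8.5.1.1 in the submitters' processing notes. Analyses used limma 3.58.1 (R 4.3.3). Normexp (offset 50) was fitted on spots without an outlier flag and outside dimmed rows, which were bands of 10 rows with a median log2 ratio more than 0.5 under that of the array. Ratios were loess-normalized and spots of a probe averaged. Nothing was imputed. Each gene was represented by its brightest probe on average. Fits were Benjamini-Hochberg adjusted over all genes, with a threshold of 0.05: early against late with 1 coefficient, the others as contrasts of 6 group means, all over 24 arrays. Of 39429 probes, 31375 were named through a RefSeq table and the rest kept the file's name. The steps were tested on simulated data. The members and gene lists were chosen with earlier results of these data known. Members are all named, with up to 4 called genes a list and the 8 highest and 4 lowest correlations. The uncalled hedgehog genes and the neighbors of Mycn are named too. The number of arrays limits the precision. Alternatives were the dimmed rows kept or found in tiles (added later), imputation, background, normalization, filter and probe choices, array weights, slide or session blocks, and arrays left out. 1 called gene of these lists is not reported here.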

Additional observations from a re-analysis of the deposited data

Results flagged for a closer look

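Of 28 sets of 4 to 10 tumors of a member, 3 held a tumor far from the others, and chance gives about 1 in 20 such sets. Myc was 2.00 in HFD Late replicate 6, next to 0.92 in the nearest of the 6 tumors. Mxd1 was -2.03 in HFD Early replicate 1, next to -0.21 among 5 early tumors. Mnt was -2.0 in LFD Late replicate 4, next to -0.45 among 5 tumors, in a row beside the dimmed rows of slide 6.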

How the results depend on the processing

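Mxd3 kept its direction and call for early against late tumors and within HFD in every alternative run, and Mycn kept its direction in both. No paired analysis was possible because no label pairs tumors across groups. The cause of the following changes was not tested. Counts are of genes called, then of members called where these moved. With the dimmed rows kept, early against late called 2133 genes and 1 member, within HFD 1328, within HFD-LFD 56, the early diets 868, late diets 83 and the lists 9 higher, the 8 genes like Mycn shared 1, and reversed values were 0.06 for Mxd4, 0.04 for Mnt, 1.16 for Mxd4 within HFD-LFD and 0.02 for Stat2. Imputation gave 0 for Mnt. Normexp on all spots called 443 genes within HFD-LFD and 62 across late diets. Median centring called 272 within HFD-LFD, 562 between early diets and 49 list genes higher, with 2.72 for the early mean of Mycn, 4 shared genes, 0.34 for Max and for Mnt and 0.20 for Mxd4 within HFD-LFD. The scanner's log ratio called 1 member for early against late and 1 gene for late HFD against LFD. The tumor dye alone called 1 member for early against late, 984 genes within HFD, 73 for the difference between diets, 809 and 0 members between early diets, 112 across late diets and 1 for late HFD against LFD, with 4 shared genes and 0.12 for Max. Without a filter 5 genes were called for the difference and 2 members between early diets. The mean of probes called 1 member for early against late, 0 genes for the difference, 2 members between early diets and 1 across late diets. Array weights called 6218 genes and 4 members, 7881 within HFD, 2054 within HFD-LFD, 354 for the difference, 7235 and 3 members between early diets, 5102 and 4 across late diets and 1230 and 2 for late HFD against LFD, where Mxd3 was 0.08. Slide as a random block, with a correlation of 0.28, called 1457 genes and 1 member, 385 within HFD, 25 within HFD-LFD, 0 for the difference, 416 and 0 members between early diets, 7 across late diets and 9 list genes higher. Session as a block called 4 members for early against late, 329 genes within HFD-LFD, 0 for the difference, 71 and 0 members between early diets, 5 across late diets and 5 list genes lower. The Mycn value between early diets in this fit, -4.39, is not an estimate of that difference. Without the slides with dimmed rows 1 member was called for early against late, 453 genes within HFD-LFD, 6 for the difference, 146 across late diets and 42 for late HFD against LFD. Session 1 alone called 1315 genes and 1 member, with 0.12 for Max, and equal group weights 4 members. Of the 8 genes like Mycn, Spearman's rho shared 3 and late tumors alone 2. With each tumor left out in turn, early against late called 1801 to 4146 genes and 1 to 3 members, within HFD 819 to 3309 and 2 to 4, within HFD-LFD 22 to 279, the difference 2 to 34, the early diets 429 to 2345, late diets 114 to 840 and 0 to 1 members, and late HFD against LFD 0 to 22. In these, Mnt ran from -0.11 to 0.03, Max from -0.09 to 0.00, Mycn between early diets from -0.13 to 0.59 and in the difference from -2.28 to 0.48.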

Other observations

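For early against late tumors, 1 of 6 macrophage genes was called higher (Lyz2, 0.68, adjusted p = 0.0438), 1 of 6 fibroblast genes lower (Dcn, -2.45, adjusted p = 0.00939), and 0 of 5 lymphocyte, 0 of 5 endothelial, 0 of 4 adipocyte and 0 of 4 skeletal muscle genes. Over all genes 6.22% were called higher and 9.77% lower. The adipocyte list ran from -4.84 to 0.44 in late and from -3.88 to -2.63 in early tumors.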
